A study of Mus musculus with 18 samples.

Results

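Bulk RNA of mouse colon can hold RNA of the fat that adheres to the gut wall, and the 18 colon libraries of this study differed widely in it. The libraries were ranked by log2(TPM + 1) of Adipoq, the gene of the fat cell hormone adiponectin (chr16:23146536-23157968, GRCm38.p6), in TPM, an abundance scaled for gene length that adds up to 1000000 in each library, and the 9 highest were set against the 9 lowest of the 18, with treatment group as a covariate and Adipoq itself left out. They are called here the high-Adipoq and the low-Adipoq libraries. The study examined ISM012-042, described in its title as a gut-restricted inhibitor of prolyl hydroxylases (PHD), the enzymes that mark hypoxia-inducible factors for destruction, in mice with colitis raised by TNBS, a hapten that inflames the colon. Colon was taken on day 2 from TNBS mice given ISM012-042 (6 libraries), TNBS mice given vehicle (6 libraries) and sham mice (6 libraries). The sources used here give neither strain, sex, age nor the stretch of colon. No label says whether the libraries of a group come from separate animals, so a p-value reflects only the spread among these libraries, which may be technical.

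Mesenteric fat runs along the attached border of the colon, and its main cell, the white adipocyte, keeps triglyceride in a single large droplet coated by perilipin and CIDE proteins. It takes up fatty acids released by lipoprotein lipase, releases them again through hormone-driven lipases, and secretes hormones such as adiponectin, leptin and resistin. The nuclear receptor PPARG and the factor C/EBP alpha switch on most of these genes as fat cells form. In bulk tissue, fewer cells of a type and less RNA per cell cannot be told apart, so the values below are shares of the library and not numbers of fat cells.

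The Adipoq level that made the division ran without a clear gap. The high-Adipoq libraries held 298 TPM in sham 6, 287 in ISM012-042 5, 197 in vehicle 4, 161 in vehicle 6, 147 in ISM012-042 1, 144 in ISM012-042 4, 77.1 in ISM012-042 2, 76.4 in sham 2 and 63.6 in vehicle 5. The low-Adipoq libraries held 29.6 TPM in ISM012-042 6, 22.0 in vehicle 3, 12.4 in ISM012-042 3, 6.29 in sham 1, 1.67 in sham 5, 0.161 in vehicle 1 and 0.078 in vehicle 2, and Adipoq was listed at 0 in sham 3 and sham 4. The members nearest to the division were vehicle 5, just inside, and ISM012-042 6, just outside. All 3 treatment groups reached into both sets: 4 ISM012-042, 3 vehicle and 2 sham libraries were in the high set, against 2 ISM012-042, 3 vehicle and 4 sham libraries in the low set. A ranking by 7 other adipocyte genes (Fabp4, Plin1, Cidec, Lep, Retn, Cfd and Car3) put 18 of the 18 libraries into the same set. Those genes were present wherever Adipoq was high, so the label of adipocyte content holds for the high set. Both sets held colon epithelium: Epcam, the epithelial surface protein, ranged from 576 to 1388 TPM (median 1005) in the high-Adipoq libraries and from 881 to 1460 TPM (median 1244) in the low-Adipoq libraries.

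**Figure D1:**
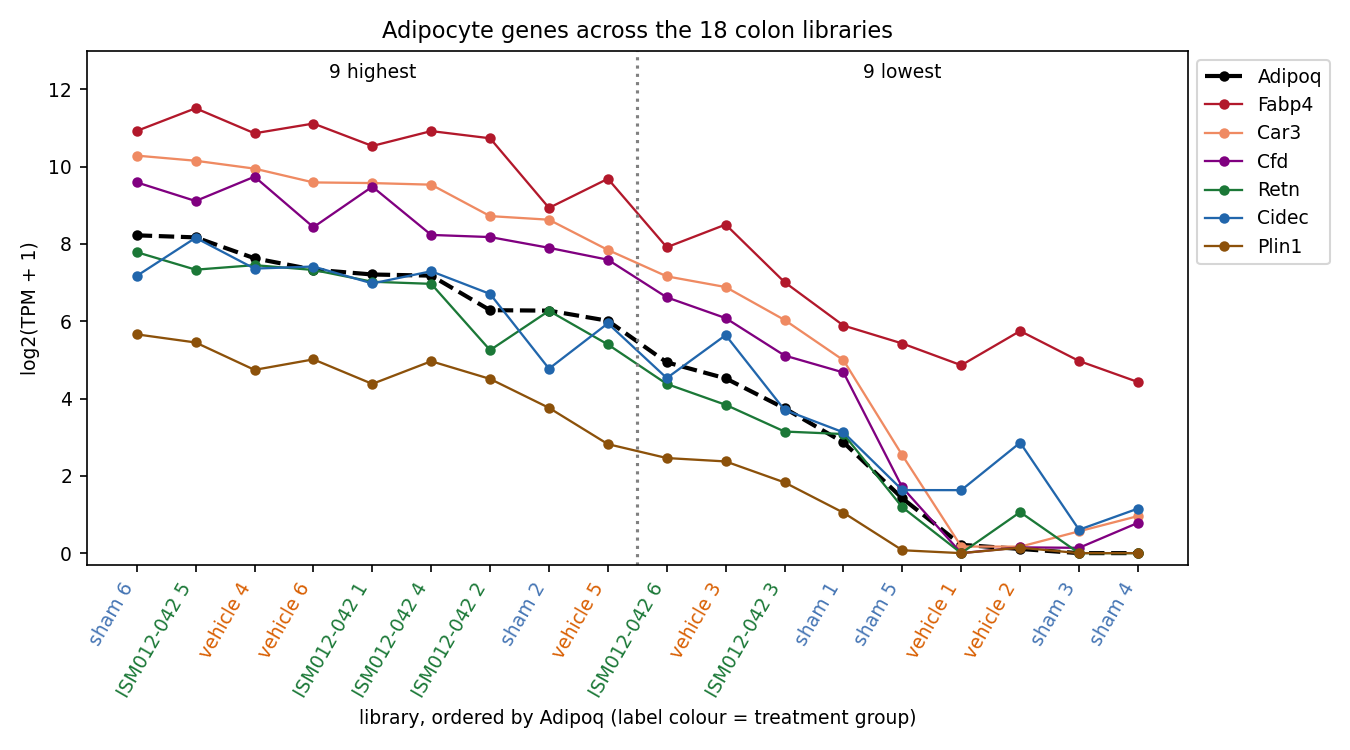
Levels of Adipoq (dashed) and 6 other adipocyte genes as log2(TPM + 1), 1 point per library, with the 18 libraries ordered by Adipoq and the division between the 9 highest and the 9 lowest drawn as a dotted line. All 7 lines run down together, but Fabp4 levels off between 20.5 and 52.8 TPM in the 4 libraries with under 1 TPM of Adipoq, where Car3 stays under 1 TPM.

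Across 14128 genes with at least 1 TPM in at least 6 libraries, 76 genes were higher in the high-Adipoq libraries at an adjusted p under 0.05 (0.538% of the genes tested; limma with Benjamini-Hochberg adjustment) and 0 were lower (0%). Of the 76, 31 belonged to 7 lists of adipocyte genes, which hold 131 genes of which 116 passed the filter on low values, 45 belonged to no list, and 0 to any of the other 24 lists of cell types and pathways. The adipocyte lists measure what Adipoq measures, so their differences are given below as a description, with no test, for each of the 31 genes and for the named members that missed the threshold. Of the 76 genes, 39 reached 1 TPM in fewer than 6 low-Adipoq libraries and so passed the filter only with the help of the high set, and a gene chosen in that way had to differ. Of the 76, 63 differed by more than 2-fold and 24 by more than 4-fold, and 26 had sets that did not overlap (0.184% of all genes tested did so upward and 0 downward). All 76 were higher in the high set within each of the 3 treatment groups. They were picked by their difference over these same libraries, so this was largely fixed in advance and is no separate support. Together with Adipoq the 76 genes took from 0.228% to 0.860% of all TPM (median 0.547%) in the high-Adipoq libraries, and from 0.0267% to 0.123% (median 0.0453%) in the low-Adipoq libraries.

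The start regions of a pair of the adipocyte genes that moved with the division are shown because they carry, in letters, the motifs of the factors named above. The motif TTGCNNAA, bound by C/EBP factors, lay on either strand within 250 bases before the start of 980 of 10584 tested genes with a promoter in RefSeq (9.26%) and of 6 of 43 such genes among the 76 (14.0%). A core of 10 letters of DR1, the element bound by PPARG with its partner RXR, shown in its matched form in the Adig sequence, lay there in 2.97% of the tested genes and in 3 of the 43 (6.98%). The sequences are from RefSeq (GRCm38.p6), read 5′ to 3′ on the + strand of the gene and ending at the base before its start, with the motif in capitals. The Lep window is chr6:29059971-29060220 and the Adig window is chr2:158502362-158502611.
Lep: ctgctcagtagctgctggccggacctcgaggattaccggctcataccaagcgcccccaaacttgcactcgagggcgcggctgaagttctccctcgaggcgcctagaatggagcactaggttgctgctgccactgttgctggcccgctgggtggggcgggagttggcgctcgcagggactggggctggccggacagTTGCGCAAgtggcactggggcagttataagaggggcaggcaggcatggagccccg
Adig: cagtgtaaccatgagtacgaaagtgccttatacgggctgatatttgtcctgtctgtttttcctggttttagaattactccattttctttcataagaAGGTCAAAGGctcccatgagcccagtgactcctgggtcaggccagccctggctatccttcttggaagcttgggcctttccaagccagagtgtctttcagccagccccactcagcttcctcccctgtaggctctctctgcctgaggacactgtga
In Lep the C/EBP motif starts 55 bases before the gene and reads the same on both strands. In Adig the PPARG motif starts 154 bases before the gene on the + strand. These are matches of letters and no measure of binding.

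Among the hormones and secreted proteins of fat cells, 3 of 13 tested members were among the genes past the threshold, and the median member differed by 0.55 on the log2(TPM + 1) scale, against −0.09 for all genes tested. Cfd, which encodes the complement protease adipsin, ranged from 192 to 855 TPM (median 345) in the high-Adipoq libraries and from 0 to 97.3 TPM (median 2.25) in the low-Adipoq libraries, a difference of 5.48 ± 0.89 (log2, SE of the fit). Retn, the gene of resistin, ranged from 37.1 to 220.0 TPM (median 129) in the high set and from 0 to 19.8 TPM (median 1.27) in the low set, a difference of 4.66 ± 0.64. For both genes every high-Adipoq library lay above every low-Adipoq library. Lep, the gene of the satiety hormone leptin, was low throughout: it ranged from 1.04 to 9.29 TPM (median 3.22) in the high set and from 0 to 2.35 TPM (median 0.057) in the low set, a difference of 1.48 ± 0.31. The Lep sets overlapped, since vehicle 3 with its 22.0 TPM of Adipoq held more Lep than vehicle 4 with 197 TPM. Lep was past the threshold in 6 of 18 fits that left out 1 library. Angptl4, a secreted inhibitor of lipoprotein lipase that is also a target of hypoxia-inducible factor, ranged from 5.39 to 100.4 TPM (median 24.3) in the high set and from 0.511 to 31.2 TPM (median 4.20) in the low set, a difference of 1.90 ± 0.42 that did not pass the threshold.

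Among the proteins that coat the lipid droplet or carry fatty acids to it, Fabp4, Cidec, Plin1 and Plin4 followed Adipoq closely. All 13 tested members of this list had positive differences, with a median of 0.57, and 4 were past the threshold. Others did not follow it. Plin2 had a median of 123 TPM in the high-Adipoq libraries and 134 TPM in the low-Adipoq libraries. G0s2 was highest in vehicle 2, a low-Adipoq library, at 198 TPM. Fabp4, the fatty acid carrier of the adipocyte cytosol, was the most abundant gene among the 76: it ranged from 488 to 2919.9 TPM (median 1862) in the high-Adipoq libraries and from 20.5 to 362 TPM (median 52.8) in the low-Adipoq libraries, a difference of 4.13 ± 0.44. Cidec, which fuses droplets into a single large one, ranged from 26.3 to 285 TPM (median 143) in the high set and from 0.522 to 48.9 TPM (median 6.25) in the low set, a difference of 3.67 ± 0.52. The Cidec sets overlapped through sham 2, with 26.3 TPM, and vehicle 3, with 48.9 TPM. Plin1, the perilipin that guards the droplet surface, ranged from 6.07 to 49.6 TPM (median 25.8) in the high set and from 0 to 4.50 TPM (median 0.103) in the low set, a difference of 3.48 ± 0.42. Its sets did not overlap. Plin4, another perilipin, differed by 2.10 ± 0.41 with sets that did, and was past the threshold in 13 of 18 fits that left out 1 library.

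Uptake and breakdown of fat gave the list with the most members past the threshold, 10 of 18, and the highest median, 1.24. Lpl, lipoprotein lipase, ranged from 39.8 to 179 TPM (median 99.0) in the high-Adipoq libraries and from 1.32 to 26.1 TPM (median 15.6) in the low-Adipoq libraries, a difference of 2.77 ± 0.44, with no overlap. Cd36, the fatty acid translocase, ranged from 31.6 to 186 TPM (median 103) in the high set and from 5.92 to 31.7 TPM (median 7.24) in the low set, a difference of 2.76 ± 0.30, and sham 2 in the high set lay level with vehicle 3 in the low set. The enzymes of lipolysis stood apart by less: Lipe, hormone-sensitive lipase, differed by 1.92 ± 0.24, with 12.6 to 48.4 TPM in the high set and 3.55 to 9.69 TPM in the low set. Pnpla2, adipose triglyceride lipase, differed by 0.75 ± 0.16, with 62.5 to 154 TPM in the high set and 37.4 to 81.3 TPM in the low set. Pnpla2 was past the threshold in 4 of 18 fits that left out 1 library. Of the receptors that start and stop lipolysis, Adrb3 and Hcar1 were scarce but moved the same way. Adrb3, the beta-3 adrenergic receptor, ranged from 2.94 to 15.7 TPM in the high set and from 0.260 to 1.46 TPM in the low set, a difference of 2.13 ± 0.26. Hcar1, the lactate receptor that restrains lipolysis, differed by 1.09 ± 0.20. The receptor genes Adra2a and Hcar2 were not past the threshold. Adra2a overlapped, at 3.35 to 32.1 TPM in the high set and 1.495 to 27.1 TPM in the low set. Hcar2 was highest in vehicle 2, a low-Adipoq library, at 83.1 TPM. The glycerol channel Aqp7 differed by 1.49 ± 0.22 and did not reach 1 TPM in any low-Adipoq library. Gpd1, which makes the glycerol backbone from glycolysis, differed by 1.74 ± 0.27. The acyl-CoA synthetase Acsl1 differed by 1.53 ± 0.27 and the fatty acid transporter Slc27a1 by 1.48 ± 0.24.

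Genes of fatty acid synthesis moved less evenly: 3 of 22 tested members were past the threshold, with a list median of 0.42. Scd1, the stearoyl-CoA desaturase, ranged from 54.7 to 545 TPM (median 65.8) in the high-Adipoq libraries and from 8.51 to 60.4 TPM (median 16.9) in the low-Adipoq libraries, a difference of 2.59 ± 0.44. Thrsp, a regulator of lipogenesis, ranged from 5.86 to 210.1 TPM (median 19.8) in the high set and from 0.262 to 6.39 TPM (median 2.06) in the low set, a difference of 3.45 ± 0.61. Me1, the malic enzyme that supplies NADPH, differed by 1.44 ± 0.30 and was past the threshold in 7 of 18 fits that left out 1 library. Fasn, the fatty acid synthase itself, overlapped widely, with 7.46 to 97.6 TPM (median 25.1) in the high set and 8.998 to 28.0 TPM (median 16.3) in the low set, a difference of 0.82 ± 0.31 that did not pass. Acly, which makes the acetyl-CoA for the same pathway and is also used by epithelium, ranged from 22.3 to 137 TPM in the high set and from 28.8 to 123 TPM in the low set.

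Thrsp, Scd1, Me1 and Fasn were highest in the sham libraries with fat, while Acacb, Agpat2, Srebf1, Mlxipl and Elovl6 of the same list were highest in a library from a mouse with colitis. The 7 high-Adipoq libraries from mice with colitis held from 5.86 TPM of Thrsp in ISM012-042 2 to 50.8 TPM in vehicle 4, against 210.1 TPM in sham 6 and 124 TPM in sham 2. Per unit of Adipoq this was 0.0666 to 0.167 in the ISM012-042 libraries, 0.0751 to 0.258 in the vehicle libraries and 0.705 and 1.62 in the sham libraries. Fasn ranged from 7.46 to 33.3 TPM in the high-Adipoq libraries from mice with colitis, against 97.6 and 64.1 TPM in the sham ones. The low-Adipoq sham libraries held 14.0 to 16.3 TPM of Fasn. The difference between the sets was 1.01 for Thrsp in ISM012-042, 3.38 in vehicle and 5.98 in sham libraries. For Fasn it was 0.03 in ISM012-042, 0.22 in vehicle and 2.28 in sham libraries. A rise in this order was not particular to genes of fatty acid synthesis. The differences were 2.90, 6.72 and 7.20 for Car3 and 2.88, 5.09 and 5.96 for Retn, but 2.21, 2.06 and 2.03 for Plin4. In the low set, Adipoq was at 12.4 and 29.6 TPM in ISM012-042 libraries and at most 6.29 TPM in sham ones. The part of this in the rise was not tested. A limma test of whether the difference between the sets varied with treatment gave unadjusted p-values of 0.000576 for Thrsp, 0.000536 for Scd1 and 0.000892 for Fasn, but the adjusted p was 0.9999 for each, and 0 genes passed the threshold (90 had an unadjusted p under 0.05). Fabp4 and Cidec ran the other way relative to Adipoq: Fabp4 per unit of Adipoq was 9.45 to 22.1 in the high-Adipoq libraries from mice with colitis and 6.38 and 6.52 in the sham ones. Cidec per unit of Adipoq was 0.830 to 1.34 in the colitis libraries and 0.345 and 0.481 in the sham ones. The ratios of Car3 and Plin1 in the same sham libraries lay within the range of the others, and that of Retn was 0.482 to 0.994 in the colitis libraries and 0.738 and 0.997 in the sham ones. Only a pair of sham libraries had this much fat, the ratios were set side by side after their values were seen, and they were not tested.

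**Figure D2:**
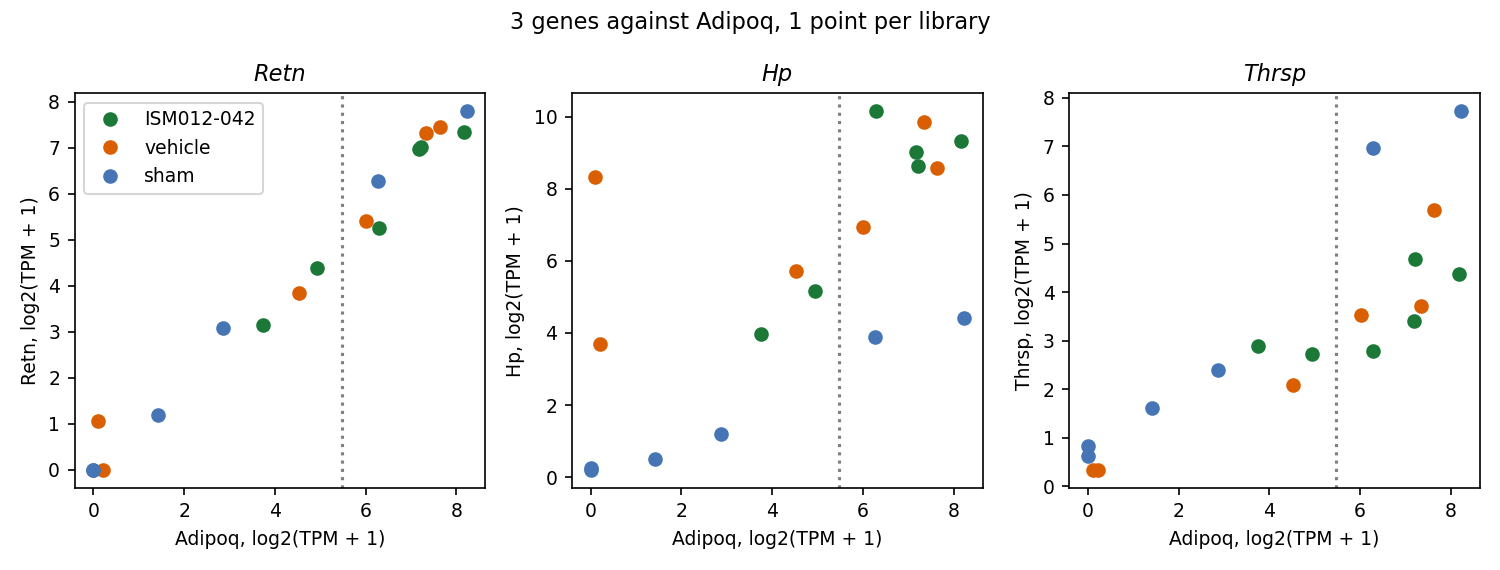
Levels of Retn, Hp and Thrsp against Adipoq, both as log2(TPM + 1), 1 point per library, coloured by treatment, with the division as a dotted line. Retn follows Adipoq in all groups, Hp lies lower in the sham libraries (at most 20.4 TPM) at every level of Adipoq, and Thrsp is highest in the pair of sham libraries to the right of the line (210.1 and 124 TPM).

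The transcription factors and receptors of the fat cell gave 3 of 19 members past the threshold and a median of 0.23. Pparg, the master regulator, was not among them: it ranged from 29.2 to 90.1 TPM (median 54.9) in the high-Adipoq libraries and from 20.2 to 65.3 TPM (median 34.8) in the low-Adipoq libraries, a difference of 0.43 ± 0.27. Cebpa, its partner, ranged from 23.2 to 44.5 TPM (median 36.4) in the high set and from 14.9 to 27.4 TPM (median 21.8) in the low set, a difference of 0.59 ± 0.13, and was past the threshold in 4 of 18 fits that left out 1 library. Both factors are also used by colon epithelium or its macrophages, and the 4 libraries with under 1 TPM of Adipoq still held 20.2 to 38.5 TPM of Pparg. Ghr, the growth hormone receptor, differed by 1.36 ± 0.21, with 13.5 to 58.3 TPM in the high set and 7.71 to 19.4 TPM in the low set. Tshr, the thyrotropin receptor, which mouse fat cells carry, differed by 1.08 ± 0.19 and stayed at or under 0.263 TPM in the low set. The insulin-driven glucose transporter Slc2a4 was shared with muscle and overlapped, at 7.33 to 16.3 TPM in the high set and 2.76 to 12.2 TPM in the low set.

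Further enzymes and surface proteins known from white fat gave 7 of 22 members past the threshold and a median of 1.11, and among them was the gene with the widest difference of the 76. Car3, a cytosolic carbonic anhydrase abundant in rodent fat, ranged from 229 to 1248 TPM (median 762) in the high-Adipoq libraries and from 0.123 to 142 TPM (median 4.78) in the low-Adipoq libraries, a difference of 5.65 ± 0.95. Cyp2e1, a cytochrome P450 of liver and fat that oxidises ethanol and acetone, ranged from 53.0 to 744 TPM (median 244) in the high set and from 0 to 97.9 TPM (median 0.636) in the low set, a difference of 4.91 ± 0.85. The Car3 sets did not overlap, and the Cyp2e1 sets did. Adig, a small membrane protein made as fat cells form, differed by 3.09 ± 0.33, with 6.95 to 33.3 TPM in the high set and at most 3.02 TPM in the low set. Orm1, an acute-phase carrier protein whose reads can be shared with its close copies, differed by 2.98 ± 0.43. Smaller differences were those of the amino acid transporter Slc36a2 (2.15 ± 0.23), the lipase-like Pnpla3 (1.68 ± 0.24) and the surface amine oxidase Aoc3 (1.18 ± 0.21).

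Ucp1, the uncoupling protein that defines thermogenic fat, did not exceed 0.126 TPM in the high-Adipoq libraries or 0.092 TPM in the low-Adipoq libraries. Of 9 tested genes of thermogenic fat, 1 was past the threshold: Cox8b, a subunit of cytochrome oxidase found in muscle and brown fat, with 0.549 to 16.8 TPM in the high set and 0 to 2.53 TPM in the low set, a difference of 1.94 ± 0.34. The list median was 0.25, and members that other tissues share, such as Cox7a1, a subunit of cytochrome oxidase in muscle, were abundant in both sets, at 73.3 to 214 TPM in the high set and 92.9 to 183 TPM in the low set.

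**Figure D3:**
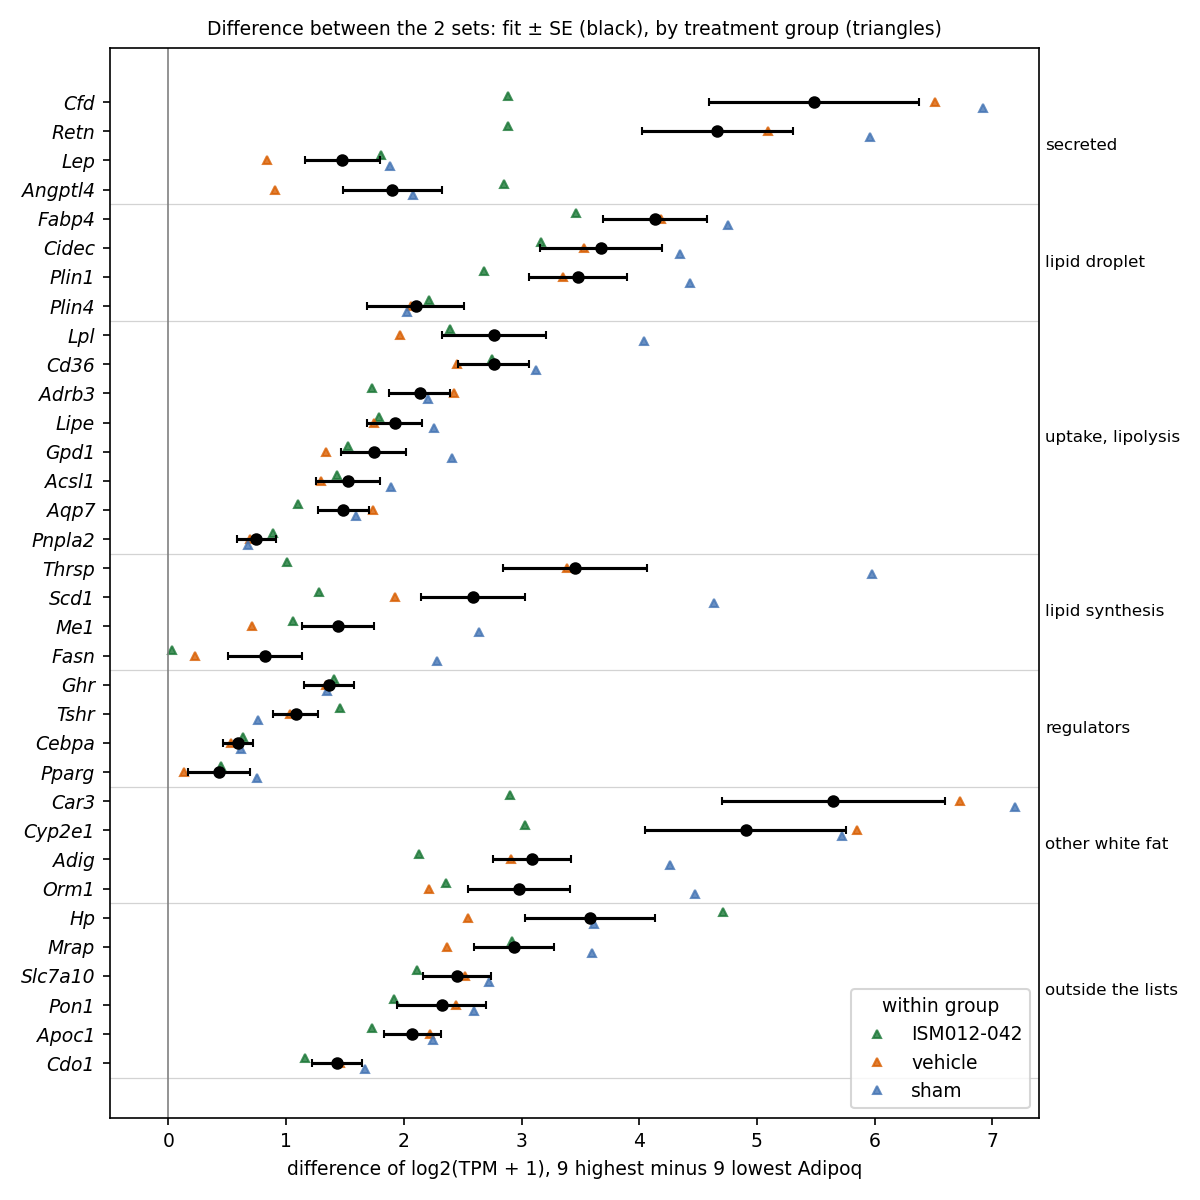
Differences in log2(TPM + 1) between the 9 highest and the 9 lowest libraries by Adipoq for named genes grouped by role. Black points are the fit with its SE, and triangles are the differences within the ISM012-042, vehicle and sham groups. The genes of largest difference are Car3 (5.65), Cfd (5.48) and Cyp2e1 (4.91). The sham triangle lies farthest right for Thrsp, Scd1, Me1 and Fasn, and also for Car3 (7.20) and Cfd (6.92). For Cyp2e1 the vehicle triangle does (5.85, against 5.72 in sham).

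Some adipocyte genes kept a clear level where Adipoq was near 0, and others did not. In the 4 libraries with less than 1 TPM of Adipoq (vehicle 1, vehicle 2, sham 3 and sham 4), Car3 was at or under 0.944 TPM, Cfd at or under 0.722 TPM, Plin1 at or under 0.103 TPM and Retn at or under 1.09 TPM. The same libraries held 20.5 to 52.8 TPM of Fabp4, 37.4 to 53.4 TPM of Pnpla2, 1.32 to 22.7 TPM of Lpl, 6.10 to 9.92 TPM of Cd36, 14.0 to 17.4 TPM of Fasn and 5.63 to 12.7 TPM of Gpd1. Those genes are known to be made by capillary endothelium, macrophages, muscle or epithelium as well. Car3, Retn, Cfd, Cyp2e1, Fabp4, Cidec, Plin1, Adig and Thrsp were the 9 reported genes most like Adipoq among those with a mean of at least 5 TPM over all libraries, with Pearson correlations over the 18 libraries of 0.992, 0.991, 0.988, 0.978, 0.976, 0.975, 0.973, 0.955 and 0.933 once treatment group means were removed. Over all genes tested the median correlation was −0.178, and the values share the libraries and the fixed total of TPM. Within the high set the amount of a gene per unit of Adipoq varied least for Car3 (3.60 to 5.46, or 1.52-fold) and Retn (0.482 to 0.997), and more for Lep (0.00530 to 0.0576, or 10.9-fold).

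The 45 genes past the threshold that no list held are not thereby independent of Adipoq, since several are known from fat cells. A test is given for named ones that reached 1 TPM in at least 6 low-Adipoq libraries, and the others are described without one. With treatment group means removed, the correlations of these tested genes with Adipoq ran from 0.730 for Hp to 0.903 for Arxes2. Their p-values for the division are therefore no separate evidence, because these genes can measure what Adipoq measures. Hp, the gene of haptoglobin, a plasma protein that binds free haemoglobin and is made in liver and fat and by neutrophils, was higher by 3.58 ± 0.55 (limma adjusted p = 0.0024). It ranged from 13.7 to 1131 TPM (median 393) in the high-Adipoq libraries and from 0.149 to 317 TPM (median 12.0) in the low-Adipoq libraries. The sets overlapped, and Hp also differed between treatment groups. In ISM012-042 mice it ranged from 393 to 1131 TPM in the high-Adipoq libraries, against 34.9 and 14.7 TPM in the low-Adipoq ones. In vehicle mice it was at 122, 379 and 928 TPM in the high-Adipoq libraries, against 12.0, 51.9 and 317 TPM in the low-Adipoq ones. In sham mice it was at 20.4 and 13.7 TPM in the high-Adipoq libraries, against 1.27, 0.420, 0.185 and 0.149 TPM in the low-Adipoq ones. The vehicle library at 317 TPM was vehicle 2, which held 0.078 TPM of Adipoq, so Hp was not confined to libraries with fat. Vehicle 2 also had the highest mean of the neutrophil list, 8.42 as log2(TPM + 1). The next was ISM012-042 2, at 7.01, which held the 1131 TPM of Hp. Vehicle 1, with a neutrophil mean of 4.51, held 12.0 TPM of Hp. The part of neutrophils in the Hp level was not tested. Per unit of Adipoq, Hp was 2.24 to 14.7 in the high-Adipoq ISM012-042 libraries, 1.92 to 5.78 in the vehicle ones and 0.0683 and 0.179 in the sham ones. With the division in the fit, Hp was higher in vehicle than in sham by 4.85 ± 0.66 (limma adjusted p = 0.0017), and in ISM012-042 than in sham by 4.78 ± 0.68 (adjusted p = 0.0032).

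The other genes outside the lists that are named here were chosen after their values were seen. Mrap, the partner protein that brings the ACTH receptor to the cell surface, ranged from 3.21 to 20.8 TPM (median 11.9) in the high-Adipoq libraries and from 0 to 4.09 TPM (median 0.299) in the low-Adipoq libraries, a difference of 2.94 ± 0.34. Its receptor Mc2r, which answers ACTH in adrenal cortex and in mouse fat, differed by 0.81 ± 0.15, at levels of 0.067 to 1.41 TPM in the high set and at most 0.277 TPM in the low set. Slc7a10, a serine and alanine transporter of the white fat cell surface, differed by 2.45 ± 0.29, with no overlap between the sets. Genes known best from liver were among them too: Pon1, the paraoxonase carried on lipoproteins, differed by 2.32 ± 0.38 and was listed at 0 in the 4 libraries with under 1 TPM of Adipoq. Apoc1, an apolipoprotein, ranged from 12.7 to 49.7 TPM (median 28.9) in the high set and from 4.16 to 11.1 TPM (median 5.24) in the low set and was higher by 2.07 ± 0.24 (limma adjusted p = 0.00015). Serpina3c, a protease inhibitor with close copies that can share its reads, differed by 2.15 ± 0.29.

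Signalling and metabolic genes were also among the 45. Fcor, a corepressor of the factor FOXO1 in fat, differed by 2.10 ± 0.24, and Tusc5, which takes part in glucose transporter traffic in fat cells, by 1.55 ± 0.22. Irs3, a rodent insulin receptor substrate of fat, differed by 1.01 ± 0.17 and did not exceed 0.385 TPM in any low-Adipoq library. Cdo1, cysteine dioxygenase, which starts taurine synthesis, ranged from 38.4 to 131 TPM (median 79.0) in the high set and from 17.2 to 41.5 TPM (median 26.6) in the low set and was higher by 1.43 ± 0.21 (limma adjusted p = 0.0011). Nnmt, nicotinamide methyltransferase, was higher by 1.77 ± 0.30 (adjusted p = 0.0043), and Arxes2, an X-linked gene induced as fat cells form that has a near copy, by 1.99 ± 0.21 (adjusted p = 0.00012). Amy1, an amylase with close copies, differed by 1.90 ± 0.33. Cd300lg, a surface protein of capillary endothelium, ranged from 1.89 to 11.2 TPM (median 5.07) in the high set and from 0.400 to 2.90 TPM (median 1.80) in the low set and was higher by 0.99 ± 0.21 (adjusted p = 0.031). Its call held in 7 of 18 fits that left out 1 library, where those of Hp, Apoc1, Cdo1, Nnmt and Arxes2 held in 18 of 18.

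In the other direction 0 genes passed the threshold in the limma fit, although 282 of the 629 genes with an unadjusted p under 0.05 were lower. Under other settings the number of lower genes ranged from 0 to 15. The smallest adjusted p was 0.124, for Pmaip1, the cell death gene also called Noxa, at 7.55 to 30.8 TPM (median 16.3) in the high-Adipoq libraries and 18.8 to 39.2 TPM (median 31.4) in the low-Adipoq libraries, a difference of −0.77 ± 0.19. The next by unadjusted p with at least 5 TPM in the low set were Tmem37, the nuclear RNA Malat1, Clic5, Ly6g6d, the creatine transporter Slc6a8, Cyp2d34 and the mucosal chemokine Ccl28, with differences from −0.62 for Cyp2d34 to −0.91 for Ly6g6d and adjusted p-values of 0.201 to 0.553. Reads of Cyp2d34 can be shared with its gene family. Slc6a8 held 35.3 to 131 TPM (median 70.5) in the high set and 71.5 to 253 TPM (median 116) in the low set, and its sets overlapped.

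Other cell types that could come along with mesenteric fat did not reach the threshold in any listed member. Of all genes tested only 0.538% were called higher, so a count of 0 here and in the lists below is near that share. Cd300lg of capillary endothelium, which no list held, was past the threshold (0.99 ± 0.21). For blood vessel lining 0 of 16 members were past it, with a list median of 0.22, and 16 of 16 differences were positive. Aqp1, the water channel of endothelium and mesothelium, ranged from 18.8 to 97.3 TPM (median 63.8) in the high-Adipoq libraries and from 15.3 to 43.8 TPM (median 22.5) in the low-Adipoq libraries, a difference of 0.66 ± 0.21 (limma adjusted p = 0.533). For mesothelium, the lining of gut and mesentery, 0 of 11 were past it, with a median of 0.38. Wt1, a transcription factor of mesothelium, ranged from 1.18 to 4.80 TPM (median 2.92) in the high set and from 0.366 to 2.60 TPM (median 0.822) in the low set, a difference of 0.71 ± 0.19 (adjusted p = 0.212). Msln, mesothelin, overlapped, at 3.83 to 33.6 TPM in the high set and 2.12 to 25.4 TPM in the low set. Stromal progenitors of fat gave 0 of 18 with a median of 0.09, fibroblast and collagen genes 0 of 19 with 0.06, smooth muscle 0 of 12 with 0.11, nerve and glia 0 of 13 with 0.18, skeletal muscle 0 of 4 with 0.22 and lymphatic lining 0 of 7 with −0.10. Exocrine pancreas, which adjoins mesenteric fat, had 2 members above the filter, with a median of −0.77. All genes tested had a median of −0.09, which the scalings below move to between −0.02 and 0.02.

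Epithelial and immune lists, other than T cell genes, lay at or below that median. Epithelial surface and junction genes gave 0 of 15 past the threshold with a median of −0.25, goblet cell genes 0 of 12 with −0.33, crypt and cell cycle genes 0 of 12 with −0.34 and mature colonocyte genes 0 of 26 with −0.09. Cdh1, E-cadherin, ranged from 124 to 380 TPM (median 245) in the high-Adipoq libraries and from 212 to 430 TPM (median 340) in the low-Adipoq libraries. B cell genes gave 0 of 11 with a median of −0.26, T cell genes 0 of 8 with −0.03, macrophage genes 0 of 16 with −0.16, mast cell genes 0 of 5 with −0.27 and neutrophil genes 0 of 14 with −0.37. The sums of the neutrophil list ran from 230 to 7812 TPM in the high set and from 110 to 28794 TPM in the low set, so the sets overlapped throughout. Lists tied to the drug and to inflammation had no member past the threshold either: targets of hypoxia-inducible factor gave 0 of 29 with a median of −0.11, interferon-stimulated genes 0 of 26 with 0.16, nuclear respiratory chain genes 0 of 26 with −0.09, genes of the mitochondrial genome 0 of 13 with 0.18 and ribosomal protein genes 0 of 15 with −0.14. Under median-ratio scaling, quantile normalization or without mitochondrial genes, the median changed sign for the T cell, colonocyte, hypoxia, Hox and respiratory chain lists in at least 1 of these settings.

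**Figure D4:**
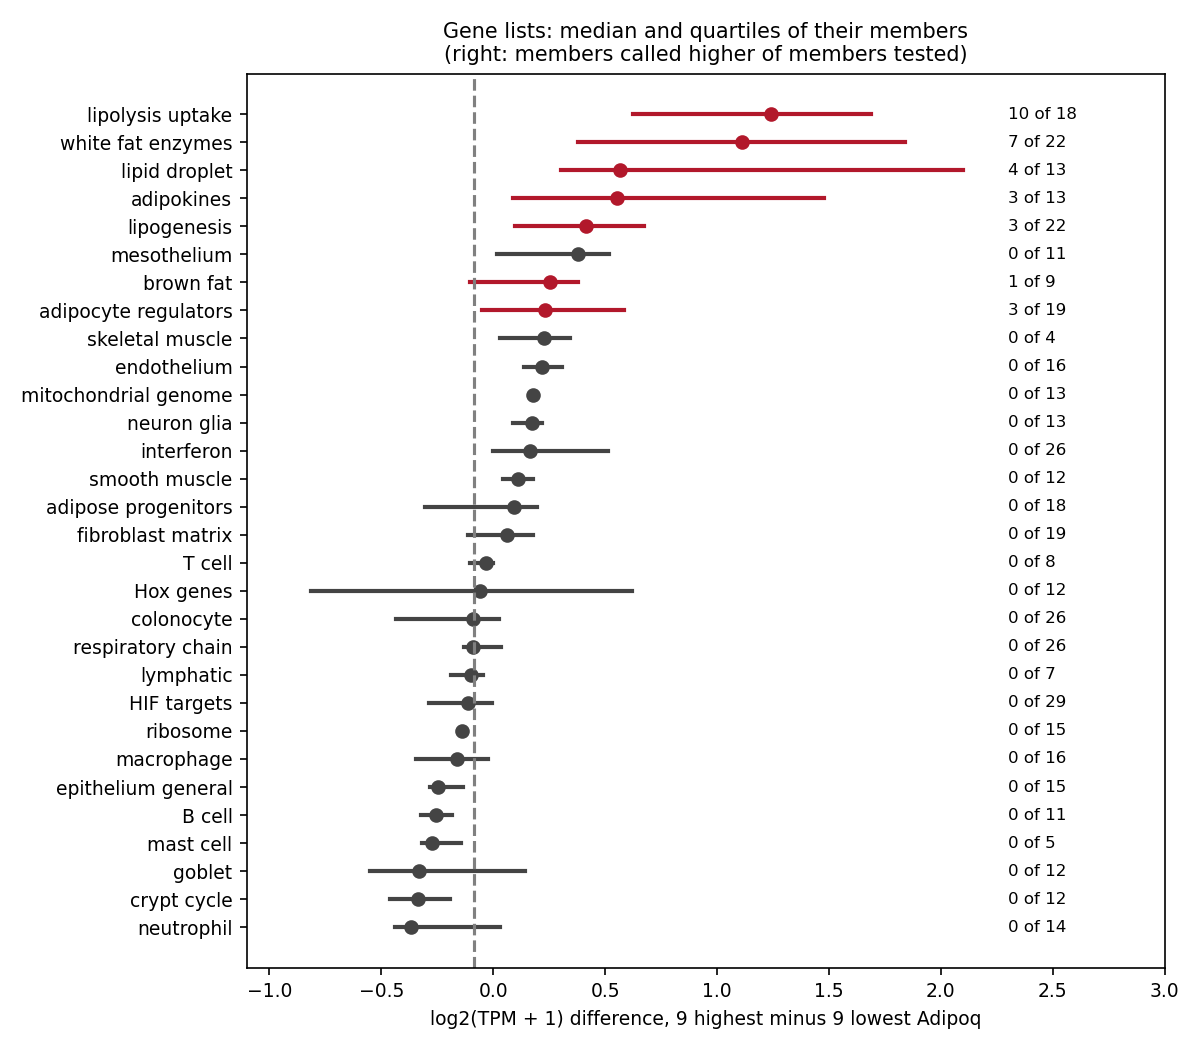
Median (point) and quartiles (line) of the difference in log2(TPM + 1) between the 9 highest and the 9 lowest libraries by Adipoq, for the 30 gene lists with at least 3 tested members, with adipocyte lists in red and the median of all genes tested (−0.09) dashed. The adipocyte lists have medians from 0.23 to 1.24, and no member of the other lists was past the threshold. The medians overlap, since that of mesothelium (0.38) lies above those of fat cell regulators (0.23) and thermogenic fat (0.25).

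Genes of position along the colon gave 0 of 12 members past the threshold, with 6 positive and 6 negative differences and a list median of −0.06, or 0.06 without mitochondrial genes. Hoxb13, a gene of the distal colon, had a median of 3.33 (0.41 to 7.78) in the high-Adipoq libraries and 7.50 (2.01 to 8.17) in the low-Adipoq libraries, as log2(TPM + 1), with wide overlap and no call (limma adjusted p = 0.934). Hoxb6, Hoxb7 and Hoxb8, which lie farther forward in the cluster, had differences of 1.42 ± 0.47, 1.30 ± 0.43 and 1.26 ± 0.41 with adjusted p-values of 0.628, 0.594 and 0.590 (limma). With the Hoxb13 level as a covariate, 63 genes were higher and 0 lower, and 60 of the 76 genes were among them. The mitochondrial genome took 20.1% to 57.8% of TPM (median 34.8%) in the high set and 22.4% to 43.1% (median 31.2%) in the low set. With that share as a covariate 84 genes were higher, including 69 of the 76, and with the mean neutrophil level as a covariate 83 genes were higher, including 76 of the 76.

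The median Adipoq level differed between the treatment groups, with wide overlap. Adipoq ranged from 12.4 to 287 TPM (median 111) in ISM012-042 libraries, from 0.078 to 197 TPM (median 42.8) in vehicle libraries and from 0 to 298 TPM (median 3.98) in sham libraries. Fabp4 had medians of 1594 TPM in ISM012-042, 593 TPM in vehicle and 50.1 TPM in sham libraries. Without the division in the fit, the 76 genes had a median difference of 0.93 for ISM012-042 against sham, against 0.21 for all genes tested, 0.66 for ISM012-042 against vehicle, against 0.30, and 0.32 for vehicle against sham, against −0.07. With the division in the fit these medians were 0.49, 0.37 and 0.12, against 0.24, 0.30 and −0.06 for all genes tested. Of the 76, 1 (Hp) was past the threshold for ISM012-042 against sham and for vehicle against sham without the division, and 0 for ISM012-042 against vehicle. These comparisons share their sham and vehicle libraries.

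The division changed how many genes were called between treatments. For ISM012-042 against sham, 95 genes passed with the division in the fit (22 higher, 0.156% of the genes tested, and 73 lower, 0.517%) and 200 without it (77 higher, 0.545%, and 123 lower, 0.871%), and 95 passed in both. For vehicle against sham, 487 genes passed with it (30 higher, 0.212%, and 457 lower, 3.23%) and 630 without it (46 higher, 0.326%, and 584 lower, 4.13%), and 484 passed in both. For ISM012-042 against vehicle 0 genes (0%) passed in either limma fit. Of the 14128 genes tested, 2850 were higher and 17 lower at an unadjusted p under 0.05 with the division, and 2670 higher and 18 lower without it. The median difference of all genes tested was 0.30 in both fits, so the genes leaned upward as a whole. The cause of this lean was not tested. Adding the division also uses 1 degree of freedom and moves every group mean, and the part of each in the change of these counts was not tested.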

How the data were processed

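Total RNA of colon was purified and reverse transcribed, according to the labels' protocols. The values are TPM, deposited by the authors for 35976 gene symbols in 18 libraries, and each column sums to 1000000, so depth is unknown. The submitters' processing notes name DRAGEN 4.0.3 and mm10. TNBS exposure comes from the series' design text.

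Genes with at least 1 TPM in at least 6 libraries were fitted as log2(TPM + 1) with limma 3.58.1 in R 4.3.3 (treatment group plus the division by Adipoq, trended and robust empirical Bayes), with Benjamini-Hochberg adjustment over 14128 genes at 0.05. Fold changes on this scale understate those of low genes. The script was tested on simulated data. Members, gene lists and tests were chosen with earlier results of these data known. Named genes are the 8 of largest difference in each direction whose mean reached 5 TPM in the higher set (filled by unadjusted p where fewer pass), up to 4 members of each list by p, a fixed set of markers, and the 10 genes most correlated with Adipoq, of which 1 is not reported here. Coordinates and promoters are from RefSeq, GRCm38.p6. Alternatives covered pseudocount, filter, scaling, covariates, the division itself and leaving out each library.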

Additional observations from a re-analysis of the deposited data

Results flagged for a closer look

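In 5 named genes 1 library stood apart from the other 8 of its set by a gap above Dixon's 95% critical value for 9 samples. Chance meets this rule in about 1 of 20 groups. Many named genes were examined in both sets, so gaps like these can arise by chance alone. Among the high-Adipoq libraries, Cox8b was at 0.549 TPM in ISM012-042 2 and Mrap was at 3.209 TPM in vehicle 5, each the lowest of its set. Among the low-Adipoq libraries, vehicle 3 was the highest for Lep, at 2.347 TPM, and for Mc2r, at 0.277 TPM, and ISM012-042 6 was the highest for Wt1, at 2.605 TPM. Vehicle 5 and ISM012-042 6 were the libraries on either side of the division, and vehicle 3 was the next below it, with 63.6, 29.6 and 22.0 TPM of Adipoq. ISM012-042 2 held 77.1 TPM of Adipoq.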

How the results depend on the processing

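Every one of the 76 genes that passed the filter under an alternative kept a positive difference in all of them. The higher count stayed between 51 (a minimum of 5 TPM) and 98 (without mitochondrial genes, which moves the median of all genes from −0.09 to 0.02) except with array weights (130 higher, 4 lower), the Adipoq level as a continuous covariate (116 and 12) and the replicate block. A lower count above 0 also came without the treatment covariate (1) and with the 3 highest set against the 3 lowest within each treatment group (15 lower and 62 higher, 32 genes shared with the 76). Leaving out 1 library gave 63 to 89 higher and 0 to 3 lower genes. For vehicle against sham, 487 became 1236 with median-ratio scaling, 1222 with quantile normalization, 1086 without mitochondrial genes, 818 with the division within groups, 2000 with the mitochondrial share as a covariate and 293 without the 2 libraries next to the division. For ISM012-042 against sham, 95 became 420, 446, 393, 301, 526 and 53 in the same order, 1107 with array weights, 276 with Hoxb13 as a covariate and 200 without the division. Without 1 library, vehicle against sham ranged from 165 to 816 and ISM012-042 against sham from 23 to 115, both lowest without sham 2. Vehicle against sham moved by more than 1.5 times without vehicle 2 (293), 3 (273), 5 (316) or 6 (816) or sham 4 (319) or 6 (269). ISM012-042 against sham did so without ISM012-042 1 (52), 3 (57), 5 (57) or 6 (59) or sham 5 (61) or 6 (46). The causes were not tested. ISM012-042 against vehicle stayed at 0 in all settings.

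The replicate numbers did not pair the samples: same-numbered libraries of different groups had correlations of −0.379 to 0.61 (mean 0.0189 over 18 pairs), and 4 of 18 libraries correlated best with their own number. With the replicate block 41 genes were higher, 2 were lower and ISM012-042 against sham gave 31. Depth is unknown, so levels near 0 TPM cannot be told from absence.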
